A study of Danio rerio with 20 samples.

Results

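The genes described here are the chaperones, cochaperones and folding enzymes of zebrafish (Danio rerio), followed in liver tumors and in normal liver. They were taken by gene symbol: heat shock proteins, DnaJ proteins, subunits of the cytosolic chaperonin, protein disulfide isomerases, calreticulin and calnexin genes, hyou1, stip1, ahsa1, st13, BAG proteins, and the prolyl isomerases of the FKBP and cyclophilin families. In all, 52 genes on 60 probes met this rule, among 15780 features of which 5356 carried 1 gene symbol. By the place where the protein is known to work, 32 belonged to cytosol and nucleus, 13 to the endoplasmic reticulum (ER) and 6 to mitochondria, while dnaja was not assigned.

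Per the labels, the tumors had been induced by carcinogens that are not named, the fish were reared near 27 °C, and 20 µg of total RNA entered each labelling. The series holds 10 arrays of tumor and 10 arrays of normal liver, and every array carried a liver sample in Cy5 beside normal zebrafish liver RNA in Cy3. The groups were read from the letters C and T in the array titles together with the stated numbers of arrays, because 1 description, naming tumor, is shared by all 20. The labels give no strain, age or sex and do not tie arrays to individual fish. The p-values thus measure the spread between these arrays, which may be partly technical. Values are log2 ratios to the Cy3 reference, where 0 is the reference level, 1 is 2-fold above and -1 is 2-fold below it. The order of the ratio, liver sample over reference, is likely from the order of the channels and was not stated. All signs would turn with the opposite order. A ratio gives no abundance, so genes are compared by their differences and not by their levels.

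Chaperones bind unfolded proteins and keep them from aggregating. Hsp70 proteins bind and release their clients in a cycle driven by ATP, in which DnaJ proteins deliver the client and start hydrolysis, and nucleotide exchange factors reset the cycle. In the cytosol stip1 passes clients from Hsp70 to Hsp90, and the ring-shaped chaperonin folds actin and tubulin. The ER has its own Hsp70 (BiP), with DnaJ partners, the exchange factor hyou1, the lectins calnexin and calreticulin, and disulfide isomerases; together they serve secreted proteins, which the liver makes in large amounts. Mitochondria use the chaperonin pair hspd1 (Hsp60) and hspe1 (Hsp10) beside the Hsp70 hspa9.

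The arrays differed in an estimate of how many spots were dim. Brightness itself was not measured, because the deposited values are ratios. The share of dim spots, estimated from values that sit at ratios of small whole numbers, ran from 2.55% to 7.87% on normal arrays and from 0.654% to 7.16% on tumor arrays, with means of 5.86% and 1.96%. With its array constant, explained with the processing, set wrong on purpose, the estimate gave 0.212% to 0.448%. The lowest tumor shares thus lie not far above the floor of this measure. Tumor replicate 9 was the only tumor array above 5%, and normal replicates 2, 5 and 8 were the only normal arrays at or below it. Of 8 hepatocyte markers, 6 were called lower in tumors and 0 higher, against 4.94% and 5.91% of all features. Their median difference was -2.62. In bulk tissue, fewer cells of a type and less RNA per cell cannot be told apart. Because the reference was itself liver, the ratios cannot show the level of those markers, only their difference from normal liver.

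The first question was which chaperones differ between tumor and normal liver, and in which compartment. A difference is the tumor mean less the normal mean, in log2 units, and is given with its standard error (SE, n = 10 arrays per group), and a gene was called when its adjusted p from limma was under 0.05. Of the 52 genes, 9 were higher in tumors, 1 was lower and 42 were not called. Over all features 10.8% were called, 5.91% higher and 4.94% lower. Of the 5356 features with 1 gene symbol, as all members have, 12.7% were called, 405 higher and 275 lower. Among these, 51.2% had a difference above 0 and 28.7% an unadjusted p under 0.05. In the ER set 4 of 13 rose and 0 fell, and its median difference was 0.40. In cytosol and nucleus 4 of 32 rose and 1 fell, with a median difference of 0.19. In mitochondria 1 of 6 rose and 0 fell, with a median of 0.10. The median difference over all features was -0.0086. Quantile normalization called 16 of the 52 genes higher and 2 lower, against 8.85% and 7.76% of all features, and array weights called 19 and 2, against 12.5% and 9.04%.

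Called or not, a difference above 0 was found for 11 of 13 ER genes, 21 of 32 cytosolic and nuclear genes and 4 of 6 mitochondrial genes, against 49.1% of all features. Among the genes that were not called it was found for 7 of 9, 17 of 27 and 3 of 5, against 48.4% of the features not called. Of these, 4 of 9, 9 of 27 and 1 of 5 had an unadjusted p under 0.05, against 17.1% of the features not called. These counts describe the compartments, whose genes were measured on the same arrays; a difference between the compartments was not tested. In 0 of the 52 genes were the groups free of overlap, against 0.526% of all features.

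**Figure D1:**
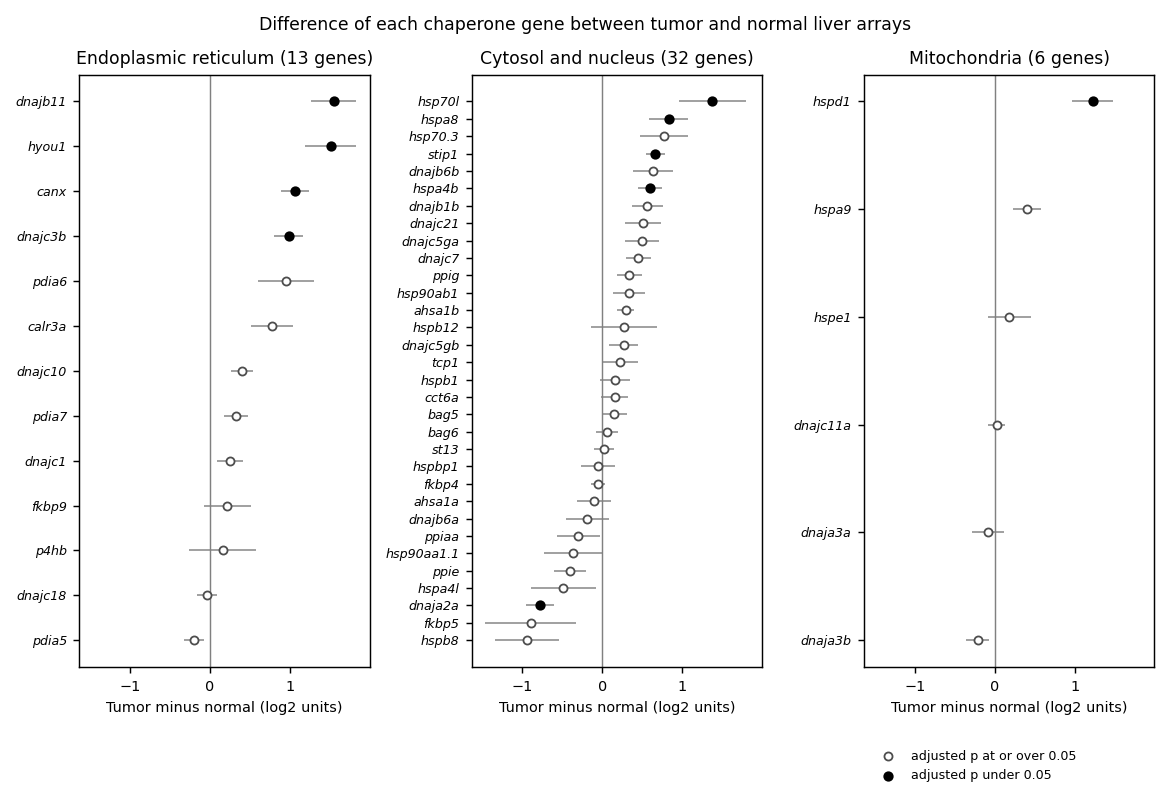
Each point is the difference of 1 gene between 10 tumor and 10 normal arrays (x axis, log2 units), with a bar of 1 SE to each side; filled points have an adjusted p under 0.05 (limma). The 4 filled ER genes lie between 0.98 and 1.54, and the cytosolic panel runs from -0.95 (hspb8, not called) to 1.37 (hsp70l).

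The ER genes that rose were partners of BiP and the lectin calnexin. BiP itself (gene hspa5) was not among the genes found by symbol, so whether it differed is not known. The same holds for the ER genes hsp90b1, pdia4, calr and ppib. Among the ER genes that rose, the largest difference belonged to dnajb11, a soluble DnaJ partner of BiP. It stood between -2.87 and -0.12 on the normal arrays (median -2.17) and between -1.32 and 0.23 on the tumor arrays (median -0.50). Tumors were therefore nearer to the reference than normal livers were, and the overlap came from normal replicate 9, the highest normal array, and tumor replicate 9, the lowest tumor array. The difference was 1.54 ± 0.28, or 2.92-fold (adjusted p = 0.0016 with limma).

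The gene hyou1 encodes a large relative of Hsp70 that acts as exchange factor for BiP. Its normal arrays ran from -2.59 to 0.24 (median -1.75) and its tumor arrays from -0.39 to 0.92 (median -0.10). Normal replicates 1 and 9 reached -0.01 and 0.24, inside the tumor range, and the other 8 normal arrays lay below all tumors. The difference was 1.51 ± 0.31, or 2.84-fold (adjusted p = 0.0038, limma).

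Calnexin, canx, is the membrane-bound lectin that holds glycoproteins during folding. It ranged from -0.99 to 0.01 on normal arrays (median -0.80) and from -0.55 to 1.08 on tumor arrays (median 0.45). Here 8 of 10 tumor arrays lay above every normal array, and the other two were tumor replicates 4 and 9. The difference was 1.06 ± 0.18, or 2.08-fold (adjusted p = 0.0007, limma).

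The fourth gene, dnajc3b, is a paralog of a DnaJ protein that in mammals binds BiP and also restrains the ER stress kinase PERK. It ran from -1.16 to -0.27 on normal arrays (median -0.65) and from -0.43 to 1.29 on tumor arrays (median 0.10). All 10 normal arrays were below the reference, and 9 of 10 tumor arrays were above every normal one, tumor replicate 3 being the exception. The difference was 0.98 ± 0.18, or 1.98-fold (adjusted p = 0.0018, limma). All 4 genes kept an adjusted p under 0.05 without any one of the 20 arrays, the highest being 0.0086 for hyou1.

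The measured oxidative folding enzymes and the calreticulin paralog calr3a did not pass the threshold. The gene calr3a differed by 0.78 ± 0.26 (adjusted p = 0.055, limma), and the disulfide isomerase pdia6 by 0.95 ± 0.35 (adjusted p = 0.083, limma). Normal replicate 9 was the highest normal array for both, at 0.35 and 0.80, where the normal medians were -1.11 and -1.67. Without this array both were called, which took the ER count from 4 to 6, against 5.32% of all features called higher. The gene calr3a was also called without normal replicate 7 or tumor replicate 1 or 9. The reductase dnajc10, which in mammals opens disulfides of proteins bound for degradation, differed by 0.40 ± 0.14 (adjusted p = 0.063, limma), and pdia7 by 0.32 ± 0.15, its 2 probes giving 0.29 and 0.36.

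The disulfide isomerase p4hb, also a subunit of collagen prolyl hydroxylase, went another way on single arrays. It stood between -3.42 and 0.37 on normal arrays (median -1.14) and between -2.21 and -0.43 on tumor arrays (median -0.78), and the difference was 0.16 ± 0.42 (95% interval -0.71 to 1.03). Its lowest normal array was replicate 9, which was the highest for dnajb11, hyou1, canx, calr3a and pdia6. Without that array the p4hb difference was -0.09, so its sign is not settled. The isomerase fkbp9 stood at 2.93 on tumor replicate 10 and between -0.12 and 0.98 on the other tumors; its difference of 0.22 turned to -0.04 without that array and was 0.88 with dim share, described further on, as a covariate (adjusted p = 0.40, limma). The remaining ER genes pdia5, dnajc1 and dnajc18 were not called.

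**Figure D2:**
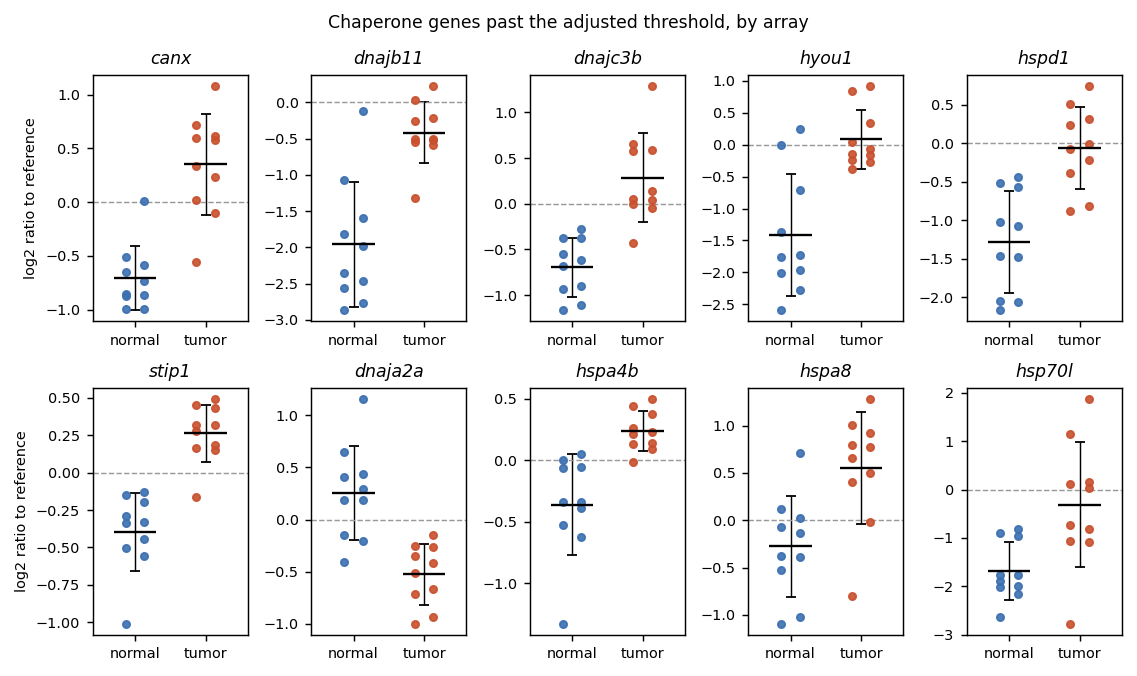
Points are log2 ratios to the normal liver reference (y axis) on the 10 normal and 10 tumor arrays for the 10 genes past the adjusted threshold; black lines are group means with 1 SD, and the dashed line is the reference level. For dnajb11, hyou1 and hspd1 the normal means lie at -1.96, -1.42 and -1.28, and the tumor means at -0.42, 0.09 and -0.06.

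In mitochondria the chaperonin hspd1 rose by 1.23 ± 0.26, or 2.34-fold (adjusted p = 0.0038, limma). Its normal arrays ran from -2.17 to -0.44 (median -1.27) and its tumor arrays from -0.88 to 0.75 (median -0.04). The 2 tumor arrays that reached into the normal range were replicates 2 and 9. Its lid hspe1, with which it forms the folding chamber, did not pass, at 0.18 ± 0.27 (95% interval -0.38 to 0.75), with normal arrays from -1.45 to 0.74 and tumor arrays from -0.70 to 0.81. Whether the pair differed in response was not tested.

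The mitochondrial Hsp70, hspa9, was below the reference on all 20 arrays and differed by 0.40 ± 0.17 (adjusted p = 0.14, limma). It was called without normal replicate 9, its highest normal array at -0.09. Its DnaJ partners dnaja3b (-0.21 ± 0.14) and dnaja3a were not called, nor was dnajc11a.

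The 5 cytosolic genes that were called all belong to the Hsp70 system: stip1, hspa4b, hspa8 and hsp70l rose and the DnaJ gene dnaja2a fell. The adaptor stip1 ran from -1.01 to -0.13 on normal arrays (median -0.33) and from -0.16 to 0.49 on tumor arrays (median 0.30). All normal arrays were below the reference and 9 of 10 tumors above it, so that tumor replicate 9 alone fell within the normal range. The difference was 0.66 ± 0.12, or 1.58-fold (adjusted p = 0.0014, limma).

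The exchange factor hspa4b, of the Hsp110 family, differed by 0.60 ± 0.15, or 1.51-fold (adjusted p = 0.011, limma). It ran from -1.33 to 0.05 on normal and from -0.01 to 0.50 on tumor arrays, and tumor replicate 6 was the only tumor not above all normal arrays. The constitutive Hsp70, hspa8, differed by 0.83 ± 0.24, or 1.78-fold (adjusted p = 0.031, limma), with normal arrays from -1.09 to 0.71 and tumor arrays from -0.80 to 1.28. The groups overlapped widely here: 5 tumors were above all normal arrays, and tumor replicate 1 was lower than 8 normal arrays.

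The DnaJ protein dnaja2a, which delivers clients to cytosolic Hsp70, was the only one of the 52 genes called lower. It ran from -0.41 to 1.16 on normal arrays (median 0.24) and from -0.997 to -0.14 on tumor arrays (median -0.47). Every tumor array was below the reference, and 6 of them were below all normal arrays. It fell by 0.78 on the log2 scale (SE 0.17; normal 1.72-fold above tumor; adjusted p = 0.0054, limma). The calls of stip1, hspa4b and dnaja2a held without any one array, with adjusted p up to 0.0036, 0.024 and 0.012.

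The heat-inducible genes hsp70l and hsp70.3 had a wide spread among tumors. For hsp70l all normal arrays were below the reference, from -2.64 to -0.81 (median -1.83), and tumors ran from -2.77 to 1.87 (median -0.35). Tumor replicates 7 and 6 were highest, and replicate 10 lay below every normal array. The difference was 1.37 ± 0.42, or 2.59-fold (adjusted p = 0.037, limma).

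For hsp70.3 the same 3 tumors marked the ends, with replicates 7 and 6 at 1.02 and 0.96 and replicate 10 at -2.02. Its normal arrays ran from -1.48 to -0.08, and its difference of 0.77 ± 0.30 did not pass (adjusted p = 0.098, limma). The 2 genes are close paralogs, and whether their probes tell them apart is not known from the files. The call of hsp70l was lost without any one of normal replicates 1, 3, 4, 5, 7, 9 and 10 and tumor replicates 1, 3, 4, 6 and 7 (adjusted p up to 0.070), and that of hspa8 without normal replicates 1, 4 and 10 or tumor replicates 6, 7 and 8 (adjusted p up to 0.059). Without normal replicate 1, 4 or 10 or tumor replicate 6 or 7, 2 cytosolic genes remained called higher. Without tumor replicate 9 there were 7. Of all features, 4.57% to 5.41% were called higher without any one of the former arrays, and 7.31% without tumor replicate 9.

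The measured Hsp90 genes, hsp90ab1 and hsp90aa1.1, were not called. The constitutive hsp90ab1 differed by 0.34 ± 0.20 (95% interval -0.08 to 0.75). For hsp90aa1.1, known from muscle and from heat shock, the 2 probes disagreed, at -1.34 ± 0.66 and 0.61 ± 0.25. The first probe spread from -4.50 to 0.78 on tumor arrays and the second from -1.497 to 0.92, so the mean of -0.37 stands for neither. The Hsp90 activator ahsa1b differed by 0.29 ± 0.11 (adjusted p = 0.087, limma) and the adaptor dnajc7, which binds both Hsp70 and Hsp90, by 0.45 ± 0.15 (adjusted p = 0.064, limma). The DnaJ protein dnajb1b, a partner of Hsp70 in the heat shock response, differed by 0.56 ± 0.20, and of its 2 probes, at 0.45 and 0.67, the second passed by itself (adjusted p = 0.025, limma).

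Chaperonin subunits were represented by tcp1 and cct6a only. Both had a 95% interval that included 0. The difference was 0.22 ± 0.22 for tcp1 (95% interval -0.23 to 0.68) and 0.15 ± 0.17 for cct6a (95% interval -0.20 to 0.51). Tumor replicate 1 held the highest tcp1 value, 1.31, where the other tumors reached 0.35. The cyclophilin ppig gave 0.34 ± 0.16 as the mean of 2 probes that differed, at -0.11 ± 0.29 and 0.78 ± 0.18, the second called by itself (adjusted p = 0.007, limma).

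Several members had single arrays far out without a call. The glucocorticoid-responsive Hsp90 cochaperone fkbp5 stood at -5.32, -4.47 and -4.04 on tumor replicates 1, 10 and 9 and between -1.70 and -0.62 on the other tumors, while normal arrays ran from -2.41 to 0.44; its difference was -0.90 ± 0.57, and -2.37 with dim share as a covariate (adjusted p = 0.18, limma). The small heat shock protein gene hspb8 stood at -3.57 and -3.29 on tumor replicates 1 and 10 and at -2.14 to 0.22 on the others, against -1.27 to 0.56 on normal arrays (difference -0.95 ± 0.40, adjusted p = 0.13, limma). The testis-rich Hsp110 relative hspa4l was high on normal replicates 4, 3 and 1, at 3.304, 1.88 and 1.65, and on tumor replicate 10, at 1.54, with the other arrays between -0.36 and 0.75. These genes were picked for their spread after the values were seen.

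**Figure D3:**
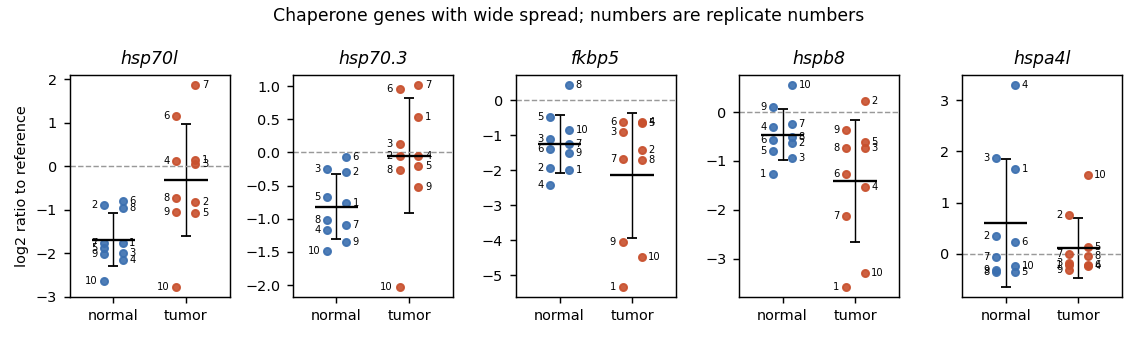
Log2 ratios to the reference (y axis) on each normal and tumor array for 5 genes with a wide spread, with replicate numbers beside the points, group means and 1 SD. Tumor replicates 7 and 6 hold the highest tumor values of hsp70l and hsp70.3, and tumor replicates 1 and 10 the lowest of fkbp5 and hspb8.

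The other cytosolic and nuclear genes, none of them called, were ahsa1a, bag5, bag6, dnajb6a, dnajb6b, dnajc21, dnajc5ga, dnajc5gb, fkbp4, hspb1, hspb12, hspbp1, ppiaa, ppie and st13. The unassigned dnaja was not called either.

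Seen against the reference, normal livers were the lower group for most members. The mean of the normal arrays was below the reference for 11 of 13 ER genes and 41 of all 52 genes, compared with 47.2% of all features. On tumor arrays it was below the reference for 6 of 13 ER genes and 30 of 52, compared with 52.9% of features. The dye was never swapped, so such a level and a gene-specific dye effect cannot be told apart. A dye effect cancels in the difference between groups only where it is the same on all arrays, which was not tested. The groups differed in mean dim share, 5.86% on normal and 1.96% on tumor arrays.

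Averaged over the 13 ER genes, normal arrays ran from -1.08 to -0.17 (median -0.72) and tumor arrays from -0.42 to 0.20 (median -0.08). Apart from normal replicate 9, the highest normal array stood at -0.46, just below the lowest tumor, replicate 9 at -0.42. The averages of cytosolic and nuclear genes overlapped more, from -0.46 to -0.13 on normal and from -0.42 to 0.10 on tumor arrays. Those of mitochondria ran from -1.01 to -0.15 and from -0.61 to 0.04.

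**Figure D4:**
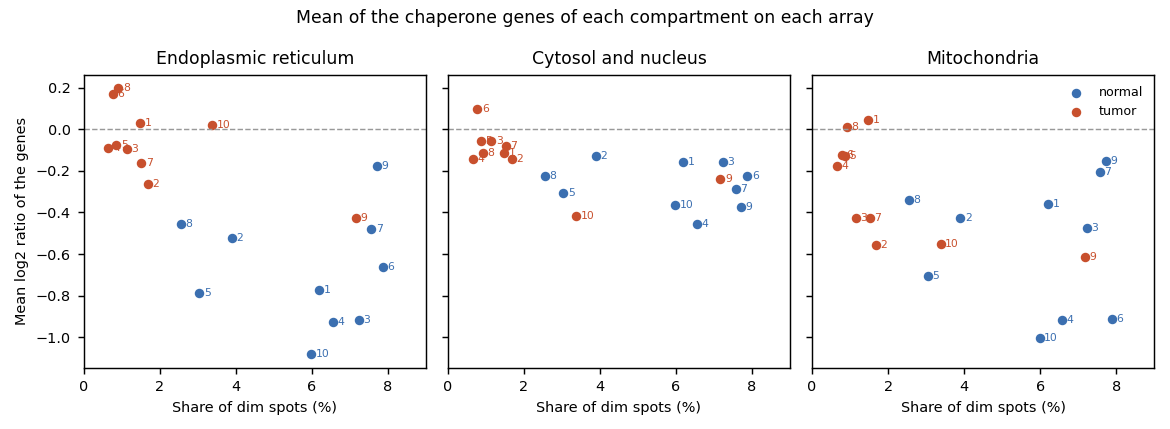
The y axis gives the mean log2 ratio over the genes of a compartment on each array, the x axis the share of dim spots of that array (%), and the numbers are replicate numbers. Tumor replicate 9, at a dim share of 7.16%, holds the lowest tumor mean in the ER panel, -0.42. Normal replicate 9, at 7.72%, holds the highest normal mean there, -0.17.

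Dim share and group went together on most arrays, so a fit that holds both cannot fully separate them. With dim share added to the fit as a covariate, 0 of the 52 genes were called by limma, against 0.342% of all features, and 11 (21.2%) had an unadjusted p under 0.05, against 10.7% of all features. These 11 were 8 of the 10 called genes together with fkbp5, fkbp9 and dnaja3a, whose differences grew in size. All 10 called genes kept their direction, at 0.488 to 0.993 of their size (median 0.781), with adjusted p from 0.14 to 0.70 (limma). The SE of each of them was larger in this fit, such as 0.27 in place of 0.18 for dnajc3b. The values at low dim share can be set side by side. On the 3 normal and 9 tumor arrays with a share up to 5%, dnajb11 reached -1.06 at most on normal and was at least -0.59 on tumor arrays. For hyou1 these bounds were -0.71 and -0.28, for canx -0.59 and -0.10, and for stip1 -0.13 and 0.15. The groups did not overlap there in these 4 of 52 genes, against 4.39% of all features, and the other called genes overlapped. The 4 had been called on the same arrays, and only 3 normal arrays remained, so this view is not a separate test. Above 5% there were 7 normal arrays and 1 tumor array, too few tumors for a comparison. The part of dim share in the differences was not otherwise tested.

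Markers of other tissues moved as well. Averaged over 4 exocrine pancreas genes, whose cells are rich in ER, normal arrays ran from -3.28 to 2.71 and tumor arrays from -4.91 to 0.90, with a median difference of -2.18 over these genes beside 0.40 over the ER genes. Limma called 0 of the 4, and 3 had an unadjusted p under 0.05. These and the marker counts that follow stand beside shares over all features. Of those, 5.91% were called higher, 4.94% lower, and 26.1% had an unadjusted p under 0.05. Normal replicate 9 had the highest average of the normal arrays and tumor replicate 9 the lowest of the tumors, and they were likewise the highest normal and the lowest tumor for the ER genes. Normal replicates 10 and 4 had the lowest pancreas averages of the normal arrays, -3.28 and -1.87, and the lowest ER averages, -1.08 and -0.93. Normal replicates 3 and 7, at 2.67 and 2.68 for the pancreas genes, had ER averages of -0.92 and -0.48. Of 8 leukocyte markers 0 were called, whose averages reached 1.92 on normal and 3.003 on tumor arrays (lowest 0.05 and 0.08), and 1 had an unadjusted p under 0.05. Of 9 ovary markers 2 rose and 1 fell, 7 had a difference above 0 and 6 an unadjusted p under 0.05, and the median difference was 1.42, in the same direction as that of the ER genes. They had the highest averages on normal replicate 8 (1.68) and tumor replicate 10 (1.33), and ranges of -2.75 to 1.68 and -1.76 to 1.33. Without these 2 arrays 11 of the 52 chaperone genes were called higher and 1 lower, against 7.05% and 4.77% of all features. Of 5 bile duct and epithelial markers 1 rose, epcam, and 2 had an unadjusted p under 0.05 (median difference 0.18), with averages of -0.65 to 1.32 and 0.15 to 1.86, and of 4 erythrocyte markers, all with a difference below 0, 1 fell and 3 had an unadjusted p under 0.05 (median -0.80), with averages of -0.00025 to 0.82 and -1.64 to 1.38. The part of such cells in the chaperone differences was not tested.

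Genes that work beside the chaperones were taken from 5 further lists with 61 measured genes. Of these 9 rose and 2 fell, against 5.91% and 4.94% of all features, and the median difference was 0.29. The lists are small, so a count of 1 in a list is not read as standing apart from those shares. In the list of ER import, glycosylation and oxidative folding 4 of 20 rose and 0 fell. The largest difference was that of sdf2l1, known in mammals as a partner of dnajb11, which ran from -4.23 to -0.43 on normal and from -1.34 to 0.81 on tumor arrays. It rose by 1.93 ± 0.36, or 3.82-fold (adjusted p = 0.0018, limma).

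The others of this list were the translocation protein tram1 (0.94 ± 0.27), the Sec61 channel subunit sec61a1b (0.76 ± 0.22) and sdf2 (0.69 ± 0.20), with adjusted p = 0.029, 0.032 and 0.030 (limma). Unlike sdf2l1 they depended on single arrays. The call of tram1 was lost without normal replicate 1, 4, 6 or 10 or tumor replicate 5 or 8. That of sec61a1b was lost without normal replicate 3, 4, 5, 7 or 10 or tumor replicate 4, 5, 6 or 8, and that of sdf2 without normal replicate 4, 5, 6, 7 or 10 or tumor replicate 3, 5, 6 or 8 (adjusted p of the 3 genes up to 0.060).

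In the list of the unfolded protein response and ER-associated degradation 2 of 12 rose and 1 fell, against 5.91% and 4.94% of all features. An unadjusted p under 0.05 was found for 7 of 12, against 26.1% of all features. The lectin os9, which marks misfolded glycoproteins, rose by 0.75 ± 0.21 (adjusted p = 0.027, limma), and the call was lost without tumor replicate 2 or 7 (adjusted p up to 0.052). The ubiquitin ligase syvn1 (0.72 ± 0.23) and the protease mbtps2 (-0.41 ± 0.13), which in mammals releases the stress sensor ATF6 from the membrane, had adjusted p = 0.046 and 0.040 (limma), and each was lost without any one of 15 arrays (up to 0.085). The arrays that kept syvn1 called when left out were normal replicates 8 and 9 and tumor replicates 7, 9 and 10, and those of mbtps2 were normal replicates 2, 3 and 4 and tumor replicates 3 and 9. The stress regulators xbp1 (0.37 ± 0.25) and atf6 (0.32 ± 0.15) and the degradation gene herpud1 (0.38 ± 0.18) were not called. Their adjusted p were 0.34, 0.18 and 0.18 (limma). Of the same list, creb3l3a (-0.72 ± 0.39) and ppp1r15a (-0.45 ± 0.33) lay below 0 and were not called (adjusted p = 0.25 and 0.39, limma). In all, 9 of the 12 genes had a difference above 0 and 3 below it, where 49.1% of all features were above 0.

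Of 12 cofactors of Hsp70 and Hsp90 and heat shock factors 2 rose and 0 fell, against 5.91% and 4.94% of all features. The Hsp90 cochaperone ptges3a (p23) rose by 0.72 ± 0.16 and pih1d1, of a complex that works with Hsp90, by 0.45 ± 0.11 (adjusted p = 0.0051 and 0.012, limma). On the 10 tumor arrays pih1d1 was above the reference throughout, from 0.05 to 0.47, and normal arrays ran from -0.57 to 0.32. The heat shock factors hsf1 and hsf2 were not called. Of 7 prefoldin and tubulin folding genes 1 rose, tbcb (0.69 ± 0.15, adjusted p = 0.0062, limma), which takes part in folding of alpha-tubulin, and tbcd gave -0.37 ± 0.16 (adjusted p = 0.13, limma).

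Of 10 genes of mitochondrial folding, import and proteases 0 rose and 1 fell, against 5.91% and 4.94% of all features. The same 1 gene had an unadjusted p under 0.05, against 26.1% of all features. It was the import receptor tomm20b, which fell by 0.51 (SE 0.14, adjusted p = 0.024, limma) and was below the reference on all tumor arrays. The channel subunit timm17a was not called, at 0.45 ± 0.24. Among the 16 mitochondrial genes of both lists, hspd1 was the only one called higher, where 5.91% of all features were.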

How the data were processed

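Liver RNA of 10 tumor and 10 normal arrays was measured on 2-colour microarrays. The authors deposited 1 table of log2 ratios per probe and array (16512 probes, 0 missing values). For background correction, spot filters, normalization and ratio direction, the sources used here give nothing. The log2 scale of the deposited values was read from the spacing of repeated values, and depth has no counterpart on arrays, so the number of arrays limits the precision. The arrays' median log2 ratios lay between -0.141 and 0.205.

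Probes were named from the platform annotation, where 6088 had 1 symbol, 75 several and 10349 none. Entrez numbers of 6019 probes matched RefSeq (assembly GRCz12tu, names only), which updated 1 symbol. Probes of 1 symbol were averaged within an array, and 8 of the 52 genes had several probes. The symbol tcp1 was read as a whole, which leaves out tcp11l2. Compartments and the lists of neighbouring genes and markers came from general knowledge. The genes and lists were chosen with earlier results of these data known. No protein, promoter or probe sequence was used here, so the sequence description planned for these genes was not analysed here.

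Tumor and normal arrays were compared with lmFit and eBayes of limma 3.58.1 (R 4.3.3) over all 15780 features, with Benjamini-Hochberg adjustment and a threshold of 0.05. The fit was run on simulated data with independent features and no difference in dim share, a check of the procedure and not of these calls. Named genes were the 8 members with the smallest p in the ER and in cytosol and nucleus, and 4 in mitochondria. To these came all that fell, a list of standard chaperones, and 2 of each further list. The genes fkbp9, hsp70.3, fkbp5, hspb8, hspa4l, ppig, cct6a, sdf2, sec61a1b and syvn1 were named after their values were seen. From the further lists xbp1, atf6, herpud1, creb3l3a, ppp1r15a, hsf1 and hsf2 were named outside these rules. They were not among the 44 genes checked for outliers. The dim share of an array is the percentage of its values that fall, after removal of 1 constant per array, within 0.00011 of log2(a/b), where a and b are integers no larger than 10. Alternatives were median centring, quantile normalization, trended and robust eBayes, array weights, the dim share as covariate, the replicate number as block, single probes, the median of probes, a 1.5-fold minimum and arrays left out. Python 3.11.15, numpy 2.4.6, pandas 2.3.3, scipy 1.17.1 and matplotlib 3.10.9 were used.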

Additional observations from a re-analysis of the deposited data

Results flagged for a closer look

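Dixon's criterion for 10 samples is exceeded by chance alone in about 1 of 20 groups. Among 44 of the named genes in 2 groups, 13 values lay apart from the other arrays of their group by this criterion. On normal arrays these were canx on replicate 9 (0.0065, the next array at -0.51), stip1 (-1.01) and ptges3a (-1.61) on replicate 4, hspa4b (-1.33) and fkbp9 (1.42) on replicate 3, and dnaja3b on replicate 1 (1.05). On tumor arrays they were dnajb11 (-1.32) and stip1 (-0.16) on replicate 9, fkbp9 (2.93), pdia7 (0.78) and hsp70.3 (-2.02) on replicate 10, and tcp1 (1.31) and hspe1 (0.81) on replicate 1. For canx, dnajb11 and stip1 the value on replicate 9 was the one that lay nearest to, or within, the other group. Some of the 44 genes, such as fkbp9 and hsp70.3, were named after their values were seen, and all share the same arrays. The count of 13 therefore cannot be set against the chance rate.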

How the results depend on the processing

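Against 9 genes called higher and 1 lower, quantile normalization gave 16 and 2 (8.85% and 7.76% of all features) and array weights 19 and 2 (12.5% and 9.04%), and all 10 genes stayed called under both. With the dim share as covariate the counts were 0 and 0, also in each compartment and in the 5 neighbouring lists. Array weights called 8 ER, 9 cytosolic and 2 mitochondrial genes higher and 2 cytosolic ones lower, and quantile normalization 9 cytosolic ones higher and 2 lower. In the neighbouring lists the 9 higher and 2 lower genes became 14 higher under quantile normalization and 26 higher and 1 lower under array weights. With the replicate number as block 5 were higher and 1 lower, against 4.23% and 3.71% of all features. After centring 1 was lower (4.98% of all features), and without tumor replicates 1 and 10 also 1 (4.22%). Without normal replicate 8 and tumor replicate 10 (4.77%) or with a 1.5-fold minimum (3.88%) 0 were lower. Leaving out single arrays gave 7 to 13 chaperone genes higher and 1 lower, 4 to 6 in the ER, 2 to 7 higher and 1 lower in the cytosol, 1 to 2 in mitochondria, and 5 to 12 higher and 1 to 3 lower in the neighbouring lists, while 8.61% to 13.6% of all features were called. The 10 calls stayed under centring, trended and robust eBayes, the median of probes, the 1.5-fold minimum and both pairs of arrays left out; the cause of the other changes was not tested.

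None of the 10 called genes changed sign under these settings. With single probes left aside, 15 of the 42 uncalled ones did under at least 1 of them, 6 with the dim share and 8 without a single array. Those described above with values were p4hb (-0.42 with the dim share, -0.0303 and -0.0882 without normal replicate 3 or 9, and up to 0.334 without other single arrays), fkbp9 (-0.0401 with array weights, -0.10 without either pair of arrays, -0.0422 without tumor replicate 10, up to 0.333 without other single arrays and 0.88 with the dim share), hsp90aa1.1 (0.00121 without tumor replicates 1 and 10) and, of the neighbouring lists, timm17a (-0.11 with the dim share). Genes of the neighbouring lists named outside the rules were not included in this check. Of the single probes, 1 each of ppig (-0.11, gene mean 0.34), st13 (-0.12, gene mean 0.02) and hsp90aa1.1 (0.61, gene mean -0.37) had the opposite sign of its gene. With the dim share fkbp5 was -2.37. The replicate number as block kept all 10 calls and added hsp70.3 (10 higher, against 4.23% of all features). Deviations of same-numbered arrays correlated from -0.152 to 0.122, over 0.1 in 2 of 10 numbers, and in 1 of 10 the best match of an array was its own number, so the numbers were not taken as pairs. Signal over background is not in the table, so which values of dim spots are bounds is not known.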

Other observations

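Over the 52 chaperone genes the median SD was 0.47 over tumor and 0.44 over normal arrays, where all features had 0.38 and 0.44. The SD over tumor arrays exceeded that over normal arrays in 24 of 52 genes, compared with 39.6% of all features, in 18 of 32 genes of cytosol and nucleus, in 5 of 13 of the ER and in 1 of 6 of mitochondria. For hsp70l the SD was 1.29 over tumor and 0.60 over normal arrays, for hspb8 1.25 and 0.53, and for fkbp5 1.78 and 0.82. For dnajb11 the order was the other way, with 0.42 over tumor and 0.86 over normal arrays, as it was for hyou1 (0.46 and 0.96) and p4hb (0.65 and 1.27). The differences in spread were not tested.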
